A study of Canis lupus familiaris with 30 samples.

Results

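The transcripts described here belong to 8 genes that carry thyroid hormone synthesis and iodide handling: *TG*, *DUOX1*, *DUOX2*, *DUOXA2*, *IYD*, *SLC5A5*, *SLC5A8* and *SLC26A4*. They were taken by gene symbol from a table of 30424 genes, and each of the 8 symbols matched 1 row. RNA was sequenced from 30 primary tumors of the canine thyroid gland, 1 library per tumor, and the deposited table held the number of reads counted on each gene. The sample labels describe all 30 libraries alike, as tumor tissue, and no treatment or normal thyroid is part of the table. The study classed its tumors as follicular or medullary carcinomas and graded them by histology, but the labels used here do not tie a library to a class, so no histologic groups were compared. Values are therefore given tumor by tumor, with the spread over the 30.

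In the thyroid, follicular cells take up iodide from the blood through the sodium-iodide symporter and release it into the follicle lumen, where it is oxidized and coupled to tyrosines of thyroglobulin. The oxidation uses hydrogen peroxide made by the dual oxidases at the apical membrane. Thyroglobulin is later taken back up and digested, hormone is released, and the iodide of unused iodotyrosines is recovered for another round. The parafollicular C cells, from which medullary carcinomas arise, make calcitonin and have no part in these steps.

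The libraries held 12288945 to 45148677 counted reads (median 25569678). Counts were scaled by median-of-ratios size factors, from 0.279 in TC538 to 1.62, and a level is log2 of such a normalized count plus 1. Levels of different genes are not set against each other, because they were not divided by transcript length. A count of 0 allows up to 3 counts. Such limits cover counting error only, since reads were not counted by molecular identifiers, and no tumor had a second library from which a technical error could be taken. The epithelial markers *EPCAM* and *CDH1* were present in every tumor, with lowest levels of 11.82 and 13.61. Several libraries stood apart. TC538 held the fewest counted reads and the fewest genes with 10 or more counts, 13515 against 15444 or more in the others. Its 10 most counted genes took 37% of its counts, in a range of 15.6% to 40.3% over the libraries. Ward clustering on 757 variable genes, with the 8 genes left out, put 25 tumors on a larger branch and TC1020, TC1473, TC1601, TC1936 and TC2289 on a smaller one. Among the 25, TC1088 had 1 count of *TSHR*, which encodes the thyrotropin receptor.

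Over all 30 tumors the 8 genes were among the most variable transcripts of the table, and a few tumors were far under the median for most of them. The SD of the level over 30 tumors was larger than that of 98.2% to 100% (to 3 digits) of the 18711 genes reaching 10 counts in 5 or more tumors for every member except *SLC26A4*, whose SD exceeded that of 88.7% of them. The median SD over those genes was 0.947. In the 24 tumors of the larger branch other than TC1088, the ranking was lower for several members. There the SD exceeded that of 53.1% of genes for *IYD*, 76.4% for *DUOX1*, 80.5% for *DUOXA2* and 88.7% for *DUOX2*. It exceeded that of 94.5% for *SLC26A4*, 98.6% for *TG*, 98.8% for *SLC5A8* and 100% (to 3 digits) for *SLC5A5*. In TC1020, TC1473, TC1936, TC2289 and TC1088, between 6 and 7 of the 8 genes lay more than 3 log2 units under their median over the 30 tumors. TC1601 had 3 such genes. At the other end, all 8 genes were above their median in 3 tumors, TC1869, TC2110 and TC902, and TC1869 held the highest level of 5 of the 8. Because whole pieces of tumor were sequenced, fewer follicular cells and less RNA of these genes per cell cannot be told apart.

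**Figure D1:**
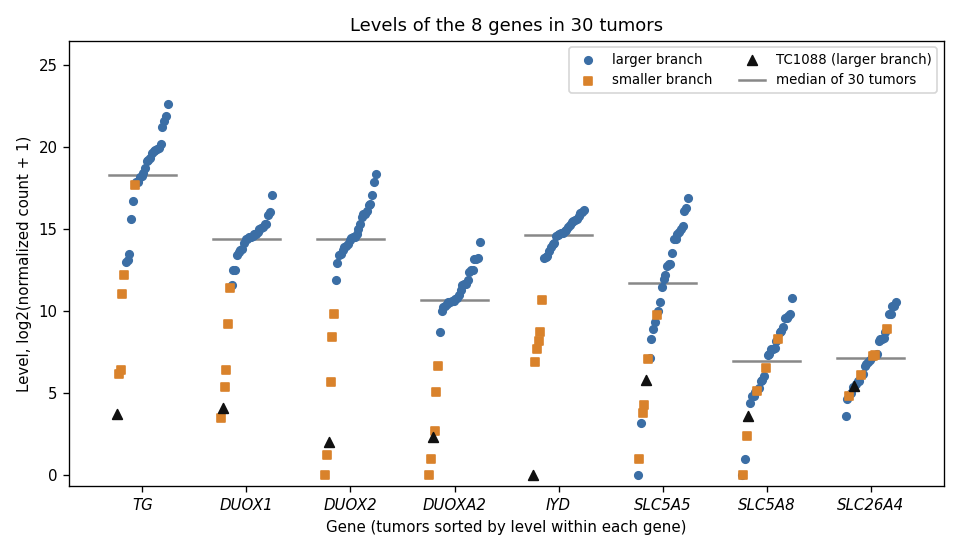
Level (log2 of the normalized count plus 1, vertical axis) of each of the 8 genes (horizontal axis) in 30 tumors, with tumors sorted within a gene. Circles are tumors of the larger branch, squares the 5 tumors of the smaller branch, the triangle is TC1088 and the gray line the median of 30, which runs from 6.93 for *SLC5A8* to 18.31 for *TG*. *IYD* forms a tight band from 13.25 to 16.16 in 24 tumors, while *SLC5A5* is spread from 0.00 to 16.88 in the same tumors.

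*TG* (ENSCAFG00000001128) encodes thyroglobulin, the large secreted protein on whose tyrosines thyroid hormone is built. Its count was 12 in the lowest tumor, TC1088, and 7548843 in the highest, TC1869, and the level ran from 3.70 to 22.65 with a median of 18.31 (SD 4.84, n = 30). In the median tumor *TG* took 1.52% of all counted reads, and in TC1869 it took 16.7%. The counts in the smaller branch were 65 in TC2289, 74 in TC1020, 2268 in TC1473, 4426 in TC1936 and 248274 in TC1601. The last of these lay inside the range of the larger branch, whereas the other 4 lay under every tumor of that branch except TC1088. Without TC1088, the larger branch reached down to 8790 counts in TC1241, 10174 in TC1979 and 13840 in TC815. The differences from the median level of *TG* were -5.20, -5.31 and -4.85 in these 3 tumors. Those of *IYD* were 0.83, -0.59 and -0.99 in the same order, and those of *DUOX2* were -0.07, -0.94 and -2.49.

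The dual oxidases make the peroxide that iodination uses. *DUOX1* (ENSCAFG00000013715) encodes one of them, and its level ran from 3.49 in TC2289 (8 counts) over a median of 14.40 to 17.05 in TC1869 (155505 counts), with an SD of 3.58. *DUOX2* (ENSCAFG00000013693), the other oxidase of the gland, had 0 counts in TC1020, 1 in TC2289, 3 in TC1088 and up to 378926 in TC2011, with a median level of 14.39 (SD 4.80). Against the limit that a count of 0 allows, *DUOX2* was at least 7385-fold lower in TC1020 than in the median tumor. *DUOXA2* (ENSCAFG00000013701) encodes the maturation factor that *DUOX2* needs to leave the endoplasmic reticulum, and it had 0 counts in TC2289, 1 in TC1020, 4 in TC1088 and a highest count of 21552, again in TC2011. Its median level was 10.68 (SD 3.77). By level, all 5 tumors of the smaller branch lay under the 24 tumors of the larger branch other than TC1088 for all 3 genes. For *DUOX1* this gap was narrow, with a level of 11.41 in TC1601 against 11.59 in TC1241. The unscaled counts of *DUOX1* overlapped, with up to 3164 in the smaller branch and from 1641 in those 24. For *DUOX2* the 5 tumors reached 1069 counts at most, in TC1601, against 3832 to 378926 in those 24. For *DUOXA2* the same tumor held their highest count, 115, against 356 to 21552.

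*IYD* (ENSCAFG00000000404) encodes the iodotyrosine deiodinase that returns iodide from unused iodotyrosines to the cell. It was the steadiest of the 8 in most of the tumors and the one that separated the low tumors by the widest gap. In 24 tumors of the larger branch its level lay between 13.25 and 16.16 (SD 0.89), and 53.1% of 18106 genes had a smaller SD there. In TC1088, the remaining tumor of that branch, the count was 0, at least 8707-fold lower than in the median tumor. The smaller branch lay between, with 131 counts in TC1473, 213 in TC1020, 265 in TC1936, 329 in TC2289 and 1899 in TC1601. Its highest level, 10.67, was under the lowest of the 24 tumors.

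*SLC5A5* (ENSCAFG00000015051) encodes the sodium-iodide symporter, through which iodide enters the follicular cell. Unlike the oxidases and *IYD*, it was spread over the whole range within the larger branch, with a lowest count of 0 in TC812, a median level over all 30 tumors of 11.71 and a highest count of 137691 in TC1869 (SD 4.69, n = 30). In TC812 it was at least 1246-fold lower than in the median tumor. A further 8 counts in TC1241, 55 in TC1088, 158 in TC1953 and 241 in TC1164 came from the same branch. The 5 tumors of the smaller branch held 1 count in TC1020, 10 in TC2289, 20 in TC1473, 127 in TC1936 and 1009 in TC1601. Their values thus overlapped those of the larger branch. In the 24 tumors without TC1088 the SD was 4.12, and 100% of the genes, to 3 digits, had a smaller one.

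*SLC5A8* (ENSCAFG00000006942), a relative of the symporter that was first proposed as an apical iodide carrier and carries monocarboxylates, was counted less often. Its count was 0 in TC1241 and TC2289, 1 in TC812 and 4 in TC1936, with a median level of 6.93 and a highest count of 1986 in TC1869 (SD 2.90). Its limit of 3 counts makes it at least 41.8-fold lower in TC1241 than in the median tumor. TC1473 and TC1601, which were low in *DUOX2* and *IYD*, had 100 and 364 counts of *SLC5A8*, close to or above its median of 134 counts.

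*SLC26A4* (ENSCAFG00000003891) encodes pendrin, the apical exchanger that lets iodide out into the lumen. It was counted in every tumor, from 11 counts in TC2402 to 1690 in TC1869, with a median level of 7.11 (SD 1.86). The smaller branch lay inside the range of the larger one, with 25 to 520 counts against 11 to 1690. In TC1088 it held 43 counts, a difference of -1.66 from its median, which was the smallest deviation of the 8 genes in that tumor. TC2288, with 1150 counts, was among the highest for *SLC26A4* and was also the tumor with the most *PTH*, the parathyroid hormone transcript (25445 counts). The summed level of *PTH*, *GCM2* and *CASR* was 14.84 there, and its part in the *SLC26A4* value was not tested.

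**Figure D2:**
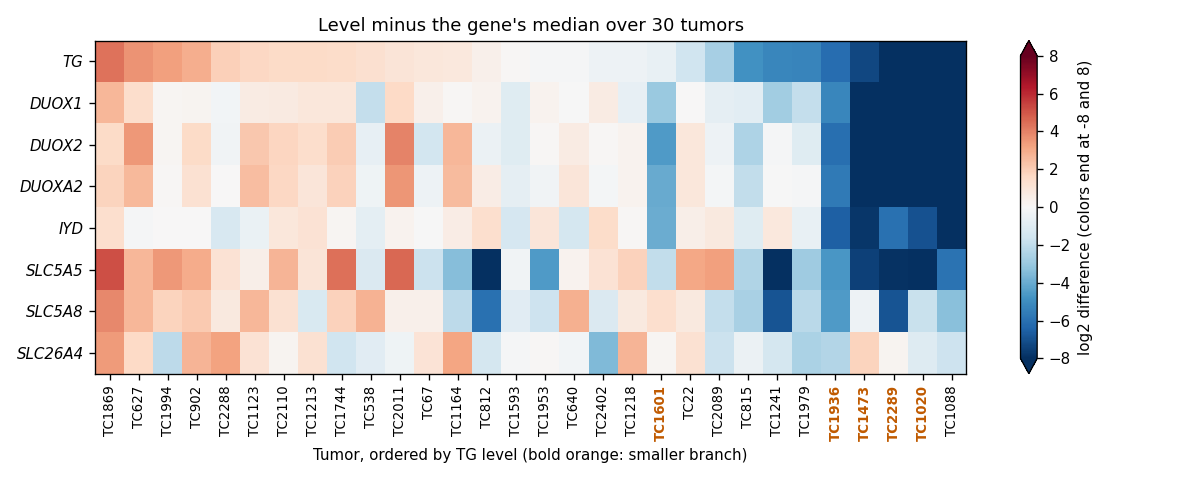
Difference of each gene's level from its median over 30 tumors (log2, color; red above and blue below the median, colors end at -8 and 8) for the 8 genes (rows) in 30 tumors (columns, ordered by *TG* level). The dark columns at the right are TC1473, TC2289, TC1020 and TC1088, in which *DUOX1*, *DUOX2* and *DUOXA2* are all low, and single dark cells mark *SLC5A5* in TC812 and TC1241.

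Markers of C cells moved with the low values in the smaller branch and did not in TC1088. The clustering left out only the 8 genes, so these markers could help to define the branches. Their separation between the branches can thus be built in and is no independent evidence. All 8 genes of the C cell list (*CALCA*, *CALCB*, *RET*, *SCG2*, *SCG3*, *CHGB*, *SYP* and *SNAP25*) had a row. Their summed level was 18.09 to 19.51 in the 5 tumors of the smaller branch, with 0 genes at a count of 0, and 7.66 to 13.20 in the 25 others, with up to 4 genes at 0. *CALCA*, which encodes calcitonin, had 132876 to 586358 counts in TC1601, TC1473, TC1020 and TC1936 but 95 counts in TC2289. *RET* had 9319 counts in TC2289, a small part of the sum there, and most of that sum came from other genes of the list. In TC1088 the summed level was 8.50, with 1 count of *CALCA* and 0 of *CALCB*. The other markers held 110 counts of *RET*, 227 of *SCG3*, 16 of *CHGB*, 7 of *SYP*, 1 of *SNAP25* and 0 of *SCG2* in that tumor. The hormone synthesis genes were thus low there while *CALCA* and *CALCB* were at or near 0. The highest sums of the larger branch, 13.20 in TC22 and 11.97 in TC812, came with 10889 and 4296 counts of *CALCA*. In TC22, 7 of the 8 genes were above their median. *CASR*, the calcium-sensing receptor that parathyroid and C cells both use, had 10067 to 47292 counts in the smaller branch and 1 count in TC1088. The part of these cell types in the low values was not tested.

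**Figure D3:**
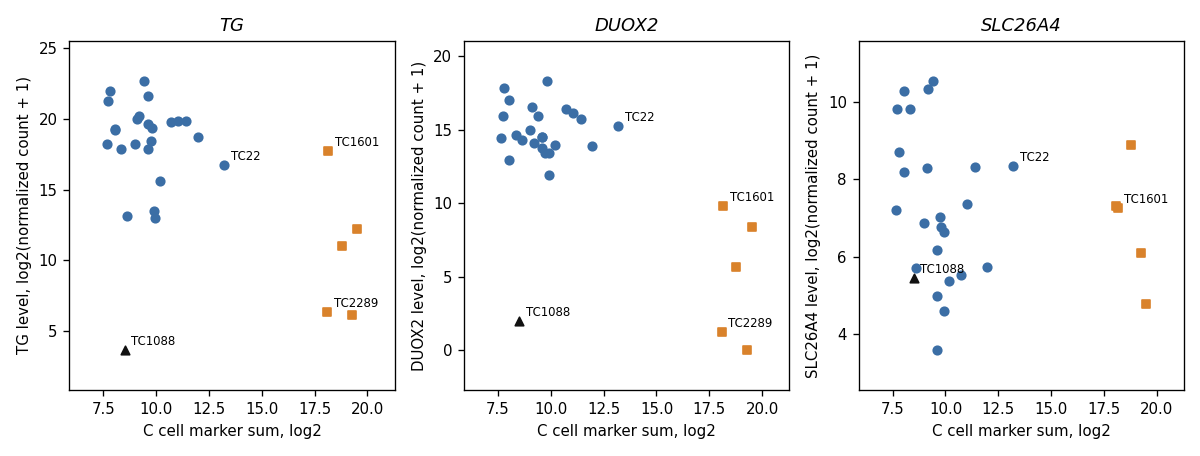
Summed level of the 8 C cell markers (log2, horizontal axis) against the level of *TG*, *DUOX2* and *SLC26A4* (log2 of the normalized count plus 1, vertical axes) in 30 tumors. Squares are the 5 tumors of the smaller branch, all at 18.09 or more on the horizontal axis, circles the larger branch, and the triangle is TC1088, which is low in *TG* and *DUOX2* at a C cell sum of 8.50. The markers were not left out of the clustering that set the branches.

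TC1088 deserves its values in full, because it sets several of the coefficients below. It held 12 counts of *TG*, 16 of *DUOX1*, 3 of *DUOX2*, 4 of *DUOXA2*, 0 of *IYD*, 55 of *SLC5A5*, 11 of *SLC5A8* and 43 of *SLC26A4* among 24621901 counted reads. Of other follicular cell genes, the regulator *PAX8* had 116 counts and *SLC26A7*, which encodes another carrier of the gland, had 0. Collagen transcripts were low as well, with 207 counts of *COL1A1*. *EPCAM* and *CDH1* were present, as in every tumor. The study left this tumor out of its differential expression analysis.

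In TC812 and TC1241 the symporter transcript was at or near 0 while several synthesis genes were counted near their medians. TC812 had 0 counts of *SLC5A5* and 1 of *SLC5A8*, yet 468670 of *TG*, 29306 of *DUOX1*, 16541 of *DUOX2*, 2723 of *DUOXA2* and 72700 of *IYD*. Its *PAX8* count was 19806. TC1241 had 8 counts of *SLC5A5* and 0 of *SLC5A8* with 45866 of *IYD* and 20245 of *DUOX2*. *TG* and *DUOX1* were low there, at 8790 and 3073 counts, differences of -5.20 and -2.81 from their medians. Both SLC5 genes were at or near 0 together in these tumors. *DUOX2* differed from its median by -0.50 in TC812 and -0.07 in TC1241, and *IYD* by 1.35 and 0.83. The reverse combination was seen in TC2089, in which *TG* differed from its median by -2.68 and *SLC5A5*, with 26696 counts, by 3.28. In TC1164 the entry carrier *SLC5A5* differed by -3.43 and the exit carrier *SLC26A4* by 3.17. TC2402 held the lowest *SLC26A4*, a difference of -3.52, together with the highest *IYD* level, 16.16.

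To describe which of these genes moved together, Spearman's rho was computed in the 25 tumors of the larger branch, since a coefficient over both branches would only restate their separation. Each library is a separate primary tumor, so a p-value measures the spread between these tumors. For each member, rho was computed with 18105 other genes, p came from 100000 permutations of ranks, and p was adjusted over all of these genes by the Benjamini-Hochberg method. Of 28 pairs of members, 27 had a positive rho, with a median of 0.51. A positive rho with an adjusted p below 0.05 was found for 1 pair, *DUOX2* with *DUOXA2*. Among all genes, such a rho was called for 0.0663% with *DUOX2* and for 0.0442% with *DUOXA2*. Before adjustment, 20 of the 28 pairs had a p below 0.05 (permutation test), and 17 had one without TC1088. Over all 18105 genes, the median rho with a member was between -0.01 and 0.01. A positive rho at the same unadjusted threshold was found for 410 of them with *SLC26A4* and up to 1633 with *IYD*.

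*DUOX2* and its maturation factor *DUOXA2* had the least variable ratio of all pairs. Pearson's r was 0.99 and rho 0.95, each with p = 1.00e-05, the smallest that 100000 permutations can give, and the permutation p of rho adjusted over all genes was 0.0201. Without TC1088 and TC2011, the tumors farthest from the median, r was 0.96. In the 24 tumors without TC1088 the log2 difference between the normalized counts of these genes had an SD of 0.47, against SDs of 1.05 to 4.29 for the other pairs. Without both TC1088 and TC538, a setting chosen after seeing the data, rho was 0.94 and the adjusted p 0.0898. The smallest adjusted p that a single gene can reach with 100000 permutations is 0.181, so the number of permutations limits these values. With 10000000 permutations, also added after seeing the data, the adjusted p in the 25 tumors was 0.000905. For *DUOX1*, the rho with *DUOX2* was 0.71 (r = 0.91, permutation p of rho 0.00014, adjusted 0.0658), and r was 0.67 without TC1088 and TC1241. With *DUOXA2* its rho was 0.70 (r = 0.90, permutation p of rho 0.00018, adjusted 0.0836), and r was again 0.67 without those tumors.

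**Figure D4:**
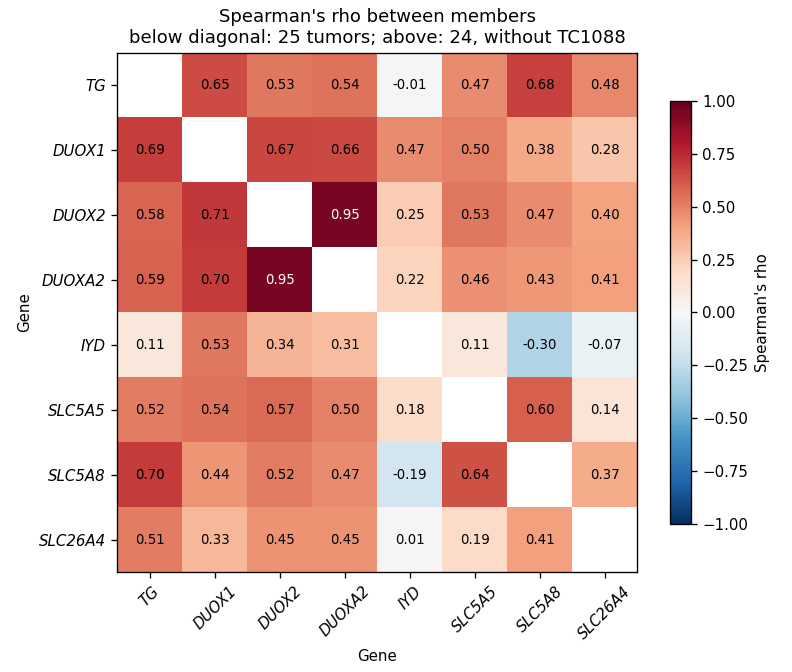
Spearman's rho between the levels of each pair of the 8 genes, in the 25 tumors of the larger branch below the diagonal and in 24 tumors without TC1088 above it (color scale from -1 to 1). The darkest cells are *DUOX2* with *DUOXA2*, 0.95 on both sides, and the palest row is *IYD*, with 0.11 for *TG* and -0.01 without TC1088.

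The largest coefficients of *TG* were those with *SLC5A8* and *DUOX1*. Its rho was 0.70 with *SLC5A8* (r = 0.61, permutation p of rho 0.0002, adjusted 0.139) and 0.69 with *DUOX1* (r = 0.89, permutation p of rho 0.0002, adjusted 0.143), and neither passed the adjusted threshold. Without TC1088 and TC1979, the farthest tumors in *TG*, r was 0.69 and 0.68. With the symporter *SLC5A5* the rho of *TG* was 0.52 (r = 0.51, permutation p of rho 0.0088, adjusted 0.347) and r was 0.46 without the same tumors. Such positive calls numbered 0.0276% of all genes for *TG*, 0.188% for *DUOX1*, 0.298% for *SLC5A8* and 0.26% for *SLC5A5*.

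The carriers of the SLC5 family, *SLC5A5* and *SLC5A8*, had a rho of 0.64 (r = 0.81, permutation p of rho 0.00071, adjusted 0.106). Without TC812 and TC1241, the tumors with both genes at or near 0, r was 0.64 with a permutation p of 0.00118. The rho without them was 0.54 (permutation p 0.0089). The pair did not pass the adjusted threshold in the 25 tumors. *SLC5A5* and *SLC26A4*, the entry and exit carriers, had a rho of 0.19 (r = 0.27, permutation p of rho 0.365, adjusted 1), and r was 0.15 without TC812 and TC1241.

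None of the 7 pairs with *IYD* was called. Its rho was 0.11 with *TG* (permutation p 0.604, adjusted 0.945) and 0.18 with *SLC5A5* (r = 0.25, permutation p of rho 0.388, adjusted 0.841). It was -0.19 with *SLC5A8* (r = 0.14, permutation p of rho 0.372, adjusted 0.752) and 0.01 with *SLC26A4* (r = 0.16, permutation p of rho 0.957, adjusted 1). Without TC1088 and TC640, the farthest tumors in *IYD*, r was -0.09, -0.25 and -0.13 for the last 3 pairs. Positive calls with *IYD* made up 0.0442% of all genes. Pearson's r of *TG* and *IYD* was 0.75 (permutation p 0.0128), but it was 0.10 (permutation p 0.639) without TC1088 and 0.02 without TC1088 and TC1979, so that this relation rests on TC1088. Its largest coefficient was that with *DUOX1*, a rho of 0.53 (r = 0.89, permutation p of rho 0.00749, adjusted 0.203), and r was 0.38 (permutation p 0.0708) without TC1088 and 0.54 without TC1088 and TC1241. For *SLC26A4* the largest rho was 0.51, with *TG* (r = 0.45, permutation p of rho 0.00946, adjusted 1), and r was 0.40 without TC1088 and TC1979. No gene of the table was called with *SLC26A4* (0%). At an unadjusted p below 0.05 (permutation test), 410 of 18105 genes had a positive rho and 410 a negative one. Such counts are no more than that threshold passes without any relation.

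**Figure D5:**
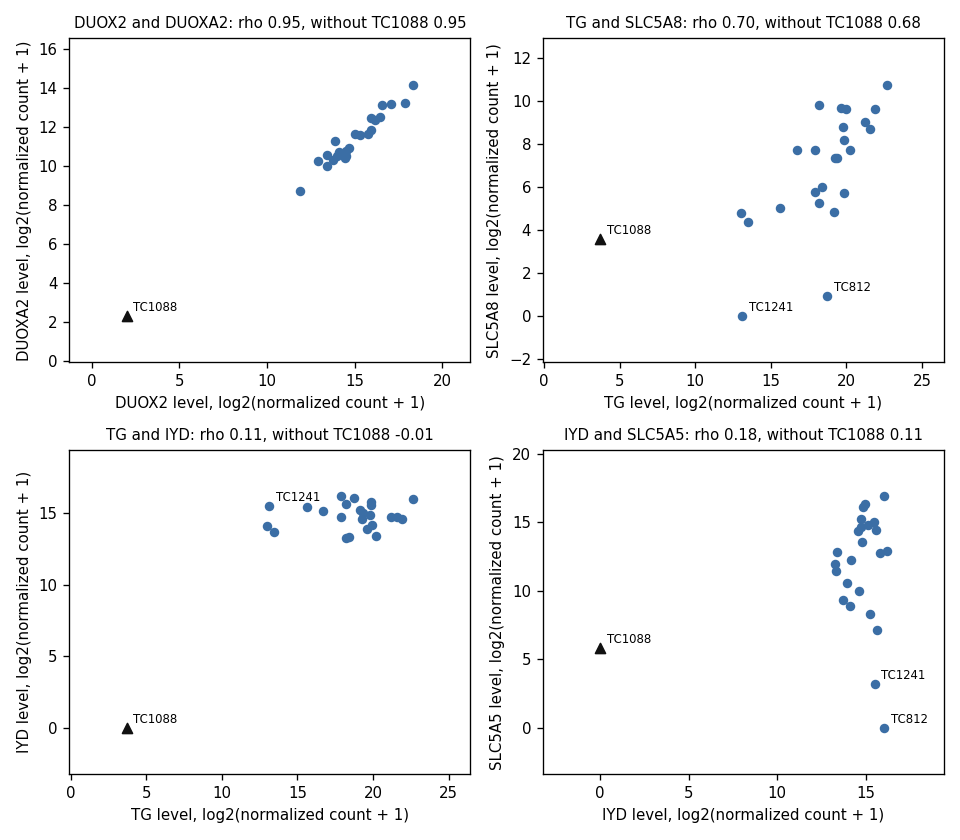
Levels (log2 of the normalized count plus 1, both axes) of 4 pairs of genes in the 25 tumors of the larger branch, with 1 point per tumor and TC1088 as a triangle. *DUOX2* and *DUOXA2* lie on a line with and without TC1088 (rho 0.95), TC812 and TC1241 lie at the bottom for *SLC5A8* and *SLC5A5*, and *IYD* is nearly level over the range of *TG* except in TC1088.

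Other genes of the pathway were taken from lists chosen with earlier results of these data known. Among genes for iodination and its regulation, *DUOXA1*, the maturation factor of *DUOX1*, was called with 3 members: the rho was 0.95 with *DUOXA2*, 0.93 with *DUOX2* and 0.75 with *DUOX1*. It thus had a higher rho with the partner genes of the other oxidase than with its own, a difference that was not tested. *TSHR* was called with *SLC5A8* only, at a rho of 0.75 (permutation test, adjusted p 0.0192 with 10000000 permutations). A further 8 genes of this list, *TRHR*, *PAX8*, *HHEX*, *GLIS3*, *SLC26A7*, *ANO1*, *KCNQ1* and *KCNE2*, were called with 0 members, and no gene of any list was called with a negative rho. Positive calls with a member made up at most 0.298% of all genes, so 0 calls in a short list do not set its genes apart.

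Of 7 chaperones and disulfide isomerases on which thyroglobulin folding depends, 3 were called with *DUOX1*: *CALR*, which encodes calreticulin (rho 0.74), *HSPA5*, the chaperone BiP (0.71), and *PDIA3* (0.70). Of all genes, 0.188% were called with *DUOX1*. With 10000000 permutations, *CALR* alone of these was called (adjusted p 0.0449). None of the positive calls with *DUOX1*, that of *DUOXA1* included, held without both TC1088 and TC538 at either number of permutations. The median rho of this list was 0.55 with *DUOX1* and 0.53 with *TG*, and 0 were called with *TG*. For *TG*, 0 genes were called in the lists of hormone release and export (median rho 0.10 over 9 genes with a row), peroxide removal (0.13 over 7 genes) and carrier relatives (-0.06 over 6 genes tested). The same 3 lists gave 0 calls with each of the other members. Markers of C cells, parathyroid, skeletal muscle, adipocytes, endothelium, fibroblasts, leukocytes and epithelium likewise gave 0 calls with every member within the larger branch. These marker lists held 1 to 7 tested genes, and at most 0.298% of all genes were called with any member. Such 0 calls are near the share of all genes and do not show that a relation is absent. For *TG*, the median rho of these marker lists was between -0.13 (2 adipocyte genes) and 0.38 (4 fibroblast genes).

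The genes with the most similar pattern to each member were ranked by rho among genes with a median normalized count of at least 100. For *TG* the first was *SLA*, an adaptor protein gene (rho 0.91, permutation test, adjusted p 0.0362, and 0.00181 with 10000000 permutations), followed by *PIR* and *HSD17B12* (both 0.79). *SLA* is the coding gene next to *TG* in the reference gene order. On the other side of *TG*, *PHF20L1* had a rho of 0.14. The 4 oxidase genes also lie in a row, in the order *DUOX2*, *DUOXA2*, *DUOXA1* and *DUOX1*, with *SORD* next to *DUOX2*. *SORD*, which encodes sorbitol dehydrogenase, was the second gene for *DUOX1* (rho 0.83) after *IVD*, isovaleryl-CoA dehydrogenase (0.84), and had a rho of 0.62 with its direct neighbor *DUOX2*. None of the positive calls with *DUOX1* held without both TC1088 and TC538, and those with *TG* became fewer. The strand setting of the counting was not stated, so reads of overlapping neighbors cannot be told apart, and the values of these neighbor pairs are uncertain to that extent.

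After *DUOXA1*, the genes nearest to *DUOX2* and *DUOXA2* were the same, *NMNAT3*, which makes NAD in mitochondria, and *PRKCE*, a protein kinase C (rho 0.81 to 0.82 for both). For *IYD* they were *ABAT*, which breaks down GABA (0.78), *CKAP4* (0.75) and *ACTG1*, a cytoplasmic actin (0.75). These had an adjusted p of 0.0259, 0.0259 and 0.0453 by the permutation test, and of 0.0579 to 0.0637 with 10000000 permutations, so that they did not pass with the finer test. The genes nearest to *SLC5A5* included *PCDHA13* (0.85) and *ADM2*, a peptide hormone gene (0.82). *SLC5A8* was nearest to *FAM177A1* (0.83), *TMEM243* (0.82) and *PDE7A*, a cyclic AMP phosphodiesterase (0.78). For *SLC26A4* they were the clock gene *PER3* (0.68), *FICD* (0.68) and *DDIT3* (0.64), none of them past the adjusted threshold (adjusted p 0.797 to 0.948, permutation test).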

How the data were processed

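RNA of 30 primary canine thyroid tumors was sequenced after removal of ribosomal RNA. Reads were aligned to CanFam3.1 with STAR, and the authors deposited raw, unscaled counts for each Ensembl gene and tumor. The strand setting is not given in the sources used here. All 30 columns matched a sample label, and the labels form 1 group. Sequences of these genes were not used here. Which genes neighbor each other was read by symbol from RefSeq's annotation of UU_Cfam_GSD_1.0, another build than that of the counts, so no coordinates are given. Of the 81 genes on the lists, 76 had a single row. Values of some list genes are not reported here.

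Levels were log2(count / size factor + 1), with median-of-ratios size factors over 15611 genes counted in every tumor. Branches came from Ward clustering of genes whose mean level exceeded 2 and whose variance exceeded 6. Correlations used genes reaching 10 counts in 5 or more tumors, Spearman's rho and two-sided permutation p-values, adjusted by Benjamini-Hochberg over all genes. The members and lists were chosen with earlier results of these data known. The named genes were the members, the list genes, and for each member the 3 genes with the highest rho among symbols with 1 row whose median normalized count reached 100. The alternatives were TMM-scaled counts (edgeR 4.0.16 in R 4.3.3), a pseudocount of 8, no count filter, Pearson's r, CPM, and leaving out TC1088 or TC538. Leaving out both, and 10000000 permutations, were added after seeing the data. Other steps used Python 3.11.15, numpy 2.4.6, scipy 1.17.1, pandas 2.3.3 and matplotlib 3.10.9.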

Additional observations from a re-analysis of the deposited data

How the results depend on the processing

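All 30 tumors kept their branch with a pseudocount of 8 and with other clustering genes. Under TMM-scaled counts, a pseudocount of 8 and CPM, the median and SD of each of the 8 genes moved by less than that gene's SD. This limit is wide, up to 4.84 log2 units for *TG*, so it excludes only very large shifts. The call of *DUOX2* with *DUOXA2* was lost only without both TC1088 and TC538 at 100000 permutations (adjusted p 0.0898, 0 of 28 pairs called), and held there at 10000000. TMM-scaled counts gave 2 pairs and Pearson's r gave 5. Counts of positively correlated genes were 5 for *TG*, 34 for *DUOX1*, 12 for *DUOX2*, 8 for *DUOXA2*, 8 for *IYD*, 47 for *SLC5A5*, 54 for *SLC5A8* and 0 for *SLC26A4*. Why they changed under the settings below was not tested. With TMM-scaled counts there were 16 for *DUOXA2* and 0 for *IYD*. With no count filter there were 18 for *DUOX1* and 4 for *IYD*. With Pearson's r there were 8 for *TG*, 186 for *DUOX1*, 26 for *DUOX2*, 17 for *DUOXA2*, 0 for *IYD* and 25 for *SLC5A5*. Without TC1088 there were 0 for *TG*, 7 for *DUOX1*, 5 for *DUOX2*, 5 for *DUOXA2*, 0 for *IYD*, 16 for *SLC5A5* and 24 for *SLC5A8*. Without TC538 there were 0 for *TG*, 15 for *DUOX1* and 0 for *IYD*. Without TC1088 and TC538 there were 0 for *TG*, *DUOX1*, *DUOX2*, *DUOXA2* and *IYD*, 18 for *SLC5A5* and 23 for *SLC5A8*. With 10000000 permutations there were 3 for *TG*, 18 for *DUOX1* and 0 for *IYD*. With these and without TC1088 there were 1 for *TG*, 6 for *DUOX1*, 5 for *DUOX2*, 5 for *DUOXA2*, 1 for *IYD*, 16 for *SLC5A5* and 32 for *SLC5A8*. With these and without TC538 there were 1 for *TG*, 9 for *DUOX1*, 5 for *DUOXA2* and 0 for *IYD*. With these and without both there were 1 for *TG*, 0 for *DUOX1*, 3 for *DUOX2*, 2 for *DUOXA2*, 0 for *IYD*, 21 for *SLC5A5* and 25 for *SLC5A8*. Where the permutation test gave 0, an unadjusted p below 0.05 was found with TMM for 1345 genes with *IYD*, without TC1088 for 627 with *TG* and 1453 with *IYD*, without TC538 for 787 with *TG* and 1293 with *IYD*, without both for 643, 855, 536, 575 and 1046 with *TG*, *DUOX1*, *DUOX2*, *DUOXA2* and *IYD*, by Pearson's r for 1517 with *IYD*, and for *SLC26A4* for 324 to 597 over all settings. With 10000000 permutations it was found for 1624 with *IYD*, without TC538 for 1309 with *IYD*, and without both for 861 with *DUOX1* and 1060 with *IYD*. All of these are genes with a positive rho, and an unadjusted threshold passes some genes without any relation. Coefficients near 0 changed sign: *TG* with *IYD* was -0.01 without TC1088, *IYD* with *SLC26A4* was -0.07 without TC1088, -0.00 without TC538 and -0.09 without both, and *IYD* with *SLC5A8* was 0.14 by Pearson's r. No paired analysis was possible because there is only 1 group of tumors.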

Other observations

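Outside the synthesis genes, *GPX3*, which encodes the extracellular glutathione peroxidase that removes peroxide, was higher in each tumor of the smaller branch than in any other. Its counts were 14155 in TC1473, 22050 in TC2289, 49992 in TC1020, 59039 in TC1936 and 120872 in TC1601, at levels of 13.65 to 16.66. In the 25 other tumors its level was 4.87 to 10.95, with the lowest in TC812 and the highest in TC22. These branches were defined from the data and the sample labels give no groups, so the difference was not tested. The part of C cells, whose markers were high in the same 5 tumors, was not tested either. Fibroblast markers had the highest sum, 17.86, in TC1601, where *COL1A1* held 141292 counts, and the lowest, 9.26, in TC1088.

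Other follicular cell genes, namely *TSHR*, *PAX8* and the carrier gene *SLC26A7*, differed among the 5 tumors of the smaller branch. *TSHR* had 1892 counts in TC1020, 4632 in TC1601 and 1717 in TC1936, but 120 in TC1473 and 220 in TC2289. In TC1020, those 1892 counts stood beside 74 of *TG* and 0 of *DUOX2*. *PAX8* had 1505 counts in TC1020 and 6 in TC2289. *SLC26A7* had 2118 counts in TC1936 against 4 in TC1020 and 8 in TC2289, and its median level over all tumors was 12.34.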
